A study of Homo sapiens with 48 samples.

Results

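The Sprouty and SPRED genes encode inhibitors of the RAS-ERK pathway, and their mRNA was followed in HEK293 cells, a human embryonic kidney line, in which the receptors for epidermal growth factor (EGF) and angiotensin II (AII) were stimulated alone or together. The members were taken by gene name. There were 7, namely the Sprouty genes SPRY1, SPRY2, SPRY3 and SPRY4 and the SPRED genes SPRED1, SPRED2 and SPRED3, of 60610 genes in the count table. All cells came from 1 clone, obtained by limited dilution, that stably expressed the AII receptor type 1 (AT1R) from a plasmid introduced with a puromycin resistance plasmid and had been selected in puromycin in the presence of losartan, an AT1R antagonist. They were grown with 10% fetal calf serum and moved to serum-free medium before stimulation. Poly(A) RNA was sequenced in 48 libraries, 6 for each of 8 groups, which were control, AII at 1 nM, EGF at 10 µg/L and AII + EGF at the same concentrations, each for 6 h or 24 h. The study's methods list an AT1R plasmid of the pCMV6 type, a vector with the cytomegalovirus promoter, without naming it as the one in this clone.

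Sprouty and SPRED proteins act as brakes on receptor tyrosine kinases. Growth factors activate RAS, RAF, MEK and ERK in turn, ERK signalling then raises the transcription of several of these inhibitors, and the new protein damps the cascade. Sprouty proteins are phosphorylated on tyrosine after receptor activation and interact with adaptors and ubiquitin ligases such as GRB2 and CBL, whereas SPRED proteins bring neurofibromin (NF1), a GTPase-activating protein for RAS, to the membrane. AT1R is a G protein-coupled receptor that can signal through the EGF receptor (EGFR), by transactivation, and also without it. The study describes HEK293 cells as unable to transactivate EGFR across the membrane, most probably because they express little of its ligand HB-EGF. It asked how both receptors act together on transcription.

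Only 38 of the 48 libraries were used for the values below, which left 4, 5, 3 and 4 libraries for control, AII, EGF and AII + EGF at 6 h, and 6, 5, 5 and 6 at 24 h. Libraries of a group were numbered in accession order, since the labels carry no replicate numbers. The number of samples per condition that the study states is smaller than the number of libraries per group, and which libraries it used is not given. Left out were 8 libraries that formed 4 pairs with near-identical counts, of which 3 pairs joined different groups, and 2 libraries at 6 h whose expression went against their labels. A scale was built from the AII mean to the AII + EGF mean of the libraries used at 6 h, over 1492 genes called between these groups. The libraries that define it lay at -0.05 to 0.03 (AII) and 0.98 to 1.02 (AII + EGF), near its ends by construction, so their own labels were not tested. On this scale the values were 0.85 for the library labelled AII 6 h replicate 6 and -0.01 for that labelled AII + EGF 6 h replicate 6. Leaving out libraries for their expression narrows the spread within groups, so results that differ with all 48 libraries are given with both values. It also left the runs of sample titles unevenly spread over the 6 h groups. The first run kept AII and AII + EGF libraries but no control or EGF library, and the run of the replicates 6 kept only its control. Comparisons at 6 h therefore mix treatment with title run in part, and a fit with the title run as a block is among the alternatives. The 4 libraries numbered replicate 6 at 24 h also stood apart, most clearly in SPRY1, and results that differ without them are given as well. The libraries used held 17.8 to 30 M counts, and the EGF 6 h libraries, at 28 to 30 M, were deeper than those of every other group. AGTR1, the AT1R gene, was at 4270 ± 239 CPM (read counts per M counts of the library, scaled with TMM factors; SD, n = 4) in controls at 6 h and at 10000 ± 436 CPM (n = 4) with AII + EGF, so the mRNA of the receptor moved with the stimulus, and its part in the results was not tested. Median levels of HEK293 markers were 291 CPM for VIM, 61.1 for KRT8, 60 for KRT18, 96.8 for LIN28B and 4690 for NEFM but only 1.26 for PAX2, while markers of other cells were at 0 (PTPRC, CD3E), 0.10 (ALB), 0.05 (PECAM1) and 1.27 CPM (MYH11).

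Promoters of the 4 members called after stimulation are shown, to place them in the genome and to let the motifs of ERK-regulated factors be read in them. RefSeq (GRCh38.p14) places SPRY1 at chr4:123396795-123403760, SPRY2 at chr13:80335976-80341126, SPRY3 at chrX:155612586-155782459, SPRY4 at chr5:142310430-142325021, SPRED1 at chr15:38252836-38357249, SPRED2 at chr2:65307175-65432599 and SPRED3 at chr19:38388697-38399587. SPRY3 lies in a pseudoautosomal region, annotated on both sex chromosomes, and counting may split its reads. The sequences below are the 250 bases before an annotated start, 5′ to 3′ on the strand of the gene, on the plus strand for SPRY1 (chr4:123396545-123396794) and SPRED1 (chr15:38252586-38252835) and on the minus strand for SPRY2 (chr13:80341127-80341376) and SPRED2 (chr2:65366779-65367028). The SPRED2 region belongs to its second annotated start, inside the gene. The first SPRED2 promoter, not shown, holds no EGR or AP-1 motif and, of the motifs searched, only a CRE half-site at position 31 after the start. Capitals mark EGR and AP-1 motifs.
SPRY1 promoter: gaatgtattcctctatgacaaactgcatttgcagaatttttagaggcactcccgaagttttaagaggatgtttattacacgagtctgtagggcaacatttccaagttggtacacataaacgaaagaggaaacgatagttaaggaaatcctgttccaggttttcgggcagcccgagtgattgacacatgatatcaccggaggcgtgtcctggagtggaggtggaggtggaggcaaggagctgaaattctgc
SPRY2 promoter: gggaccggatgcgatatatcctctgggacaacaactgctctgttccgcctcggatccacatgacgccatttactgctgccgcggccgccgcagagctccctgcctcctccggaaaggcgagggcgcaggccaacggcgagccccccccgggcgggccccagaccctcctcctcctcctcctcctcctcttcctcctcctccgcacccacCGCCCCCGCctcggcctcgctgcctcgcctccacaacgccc
SPRED1 promoter: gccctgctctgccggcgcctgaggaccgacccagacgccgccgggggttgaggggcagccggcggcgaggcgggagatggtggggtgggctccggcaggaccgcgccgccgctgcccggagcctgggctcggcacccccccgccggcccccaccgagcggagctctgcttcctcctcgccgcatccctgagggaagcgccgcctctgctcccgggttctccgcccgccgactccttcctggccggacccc
SPRED2 second promoter: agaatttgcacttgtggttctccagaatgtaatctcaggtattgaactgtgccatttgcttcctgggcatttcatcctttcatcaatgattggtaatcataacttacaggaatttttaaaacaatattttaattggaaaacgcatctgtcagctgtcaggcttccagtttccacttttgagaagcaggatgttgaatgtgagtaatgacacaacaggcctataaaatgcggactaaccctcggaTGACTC
The SPRY2 promoter holds the binding motif of EGR factors, GCGGGGGCG, on the opposite strand at position -41, where -1 is the last base before the start, and a CRE half-site, TGACG, in lower case at -190. The SPRED2 region holds the AP-1 motif TGANTCA at -6, of which the last letter falls on the first transcribed base and is not shown. Neither the SPRY1 nor the SPRED1 region holds any of the motifs searched.

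Motifs were searched on both strands in 13 member promoters of 300 bases, 250 before and 50 after the start, and in 35116 promoters of all genes. The EGR motif GCGGGGGCG stood in 2 of the 13, the SPRY2 promoter and the second SPRY1 promoter (at -28), against 5.07% of all promoters. AP-1 motifs stood in 2 of the 13, in SPRED2 and in SPRED3 (at -60), against 7.71%. The CRE half-site TGACG was in 4 of the 13 against 24.6%, among them SPRY4 at -68, and the Capicua (CIC) motif TGAATGAA in 1, a SPRED3 promoter at -192, against 1.65%. The ETS motif CCGGAAGT (4.14% of all promoters), the full CRE TGACGTCA (1.85%, which contains the half-site), the EGR variant GCGTGGGCG (0.795%), the CIC variant TGAATGGA (1.03%) and the SRF-bound CArG box (1.29%) were in none of the 13 windows. Counts are per gene, so they do not tell which annotated start was used.

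In unstimulated cells, SPRY1, SPRY2, SPRED1 and SPRED2 were the abundant members and SPRY3, SPRY4 and SPRED3 were scarce. Per length of the annotated exons, the control 6 h levels were 3.66 ± 0.638 CPM per kb for SPRY1, 3.06 ± 0.364 for SPRY2, 2.94 ± 0.236 for SPRED2 and 1.85 ± 0.0832 for SPRED1 (SD, n = 4), followed by SPRY3 at 0.173 ± 0.0258, SPRED3 at 0.106 ± 0.0781 and SPRY4 at 0.00577 ± 0.00777 CPM per kb. SPRY1, SPRY2 and SPRED2 lay within about 1 SD of one another, and so did SPRY3 and SPRED3. AII + EGF for 6 h changed the order: SPRED2 led with 12.5 ± 0.387 CPM per kb, before SPRY2 with 10.5 ± 0.987, SPRY1 with 8.35 ± 0.583 and SPRED1 with 6.39 ± 0.601 (n = 4). SPRY4, at 0.51 ± 0.094 CPM per kb, then stood above SPRED3 (0.29 ± 0.107) and SPRY3 (0.107 ± 0.0143). All 7 members passed the filter on low counts, which keeps a gene that is expressed in any one group, and SPRY4 met it through the EGF-treated groups.

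**Figure D1:**
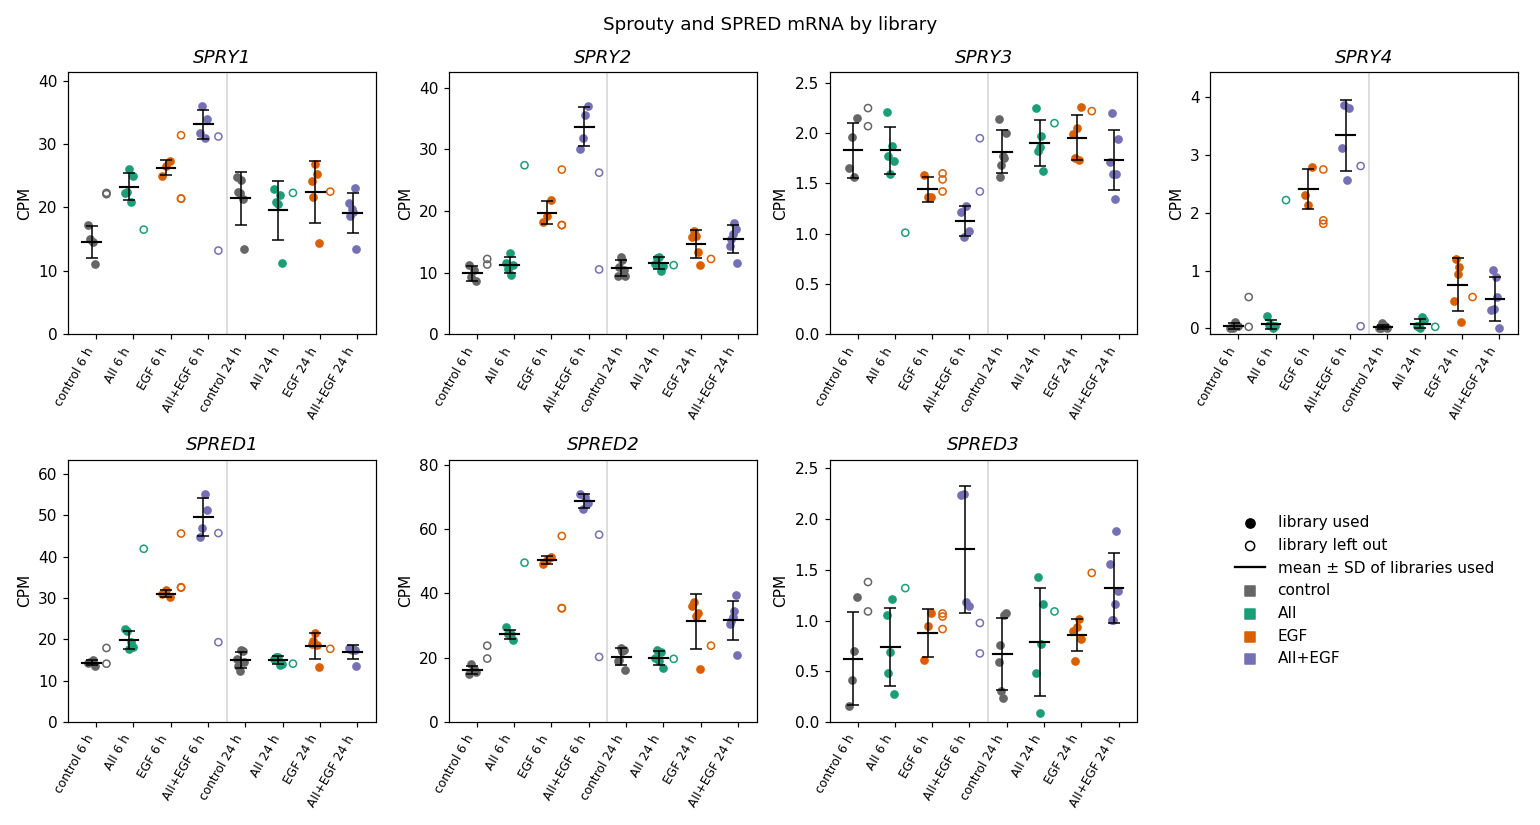
CPM (linear axis, each gene on its own scale) of the 7 members in every library, by treatment and time. Filled points are libraries used, open points libraries left out, and black lines the mean ± SD of the libraries used; SPRED2 stands between 66.1 and 70.9 CPM in the AII + EGF libraries used at 6 h, above all other groups.

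At 6 h, EGF raised 4 members and AII + EGF the same 4, whereas AII alone raised only SPRED2 past the threshold. A call needed an adjusted p (Benjamini-Hochberg) under 0.01 in the quasi-likelihood test of edgeR, a fold of 1.5 or more, and more than 5 CPM on average in the group with the higher level. By this rule 1 of 7 members rose with AII, where 0.459% of the 19626 tested genes rose, 4 of 7 with EGF, where 1.62% rose, and 4 of 7 with AII + EGF, where 6.45% rose. No member was called lower. The median log2 change over the 7 members was 0.47 with AII, 1.00 with EGF and 1.77 with AII + EGF, against -0.01, -0.01 and -0.03 over all tested genes. The 3 comparisons share the control libraries. In bulk RNA a rise in every cell and a larger share of responding cells cannot be told apart. The labels do not say whether the libraries of a group came from separate cultures, and the p-values measure the spread between these libraries only.

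**Figure D2:**
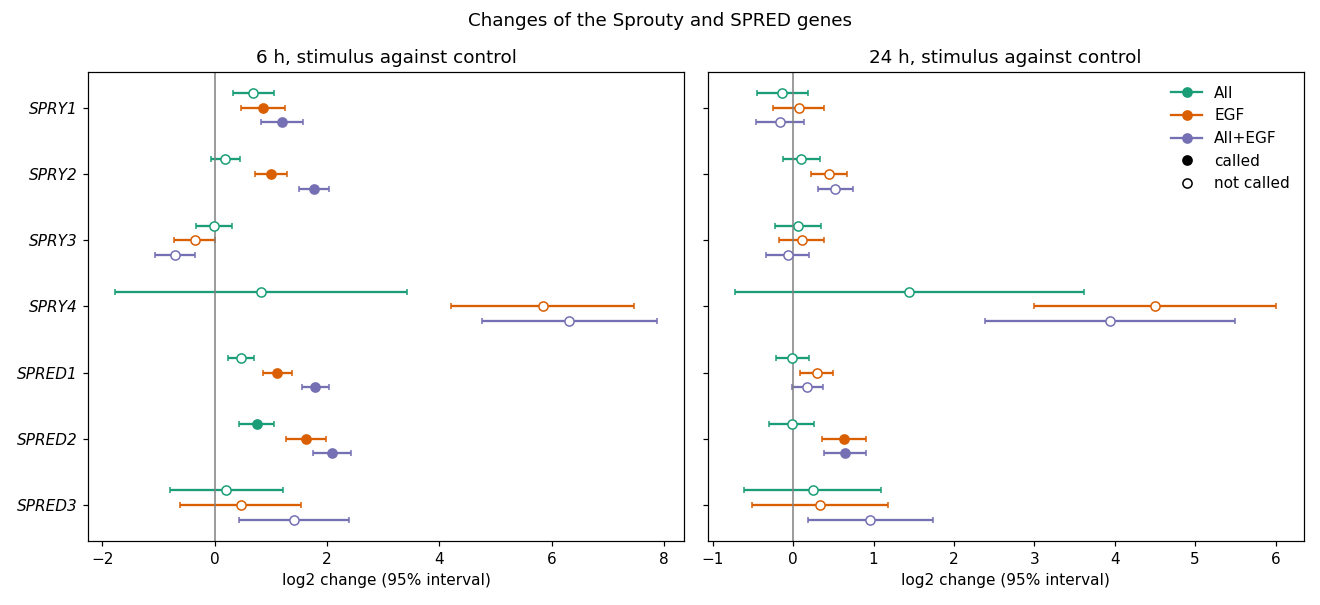
Log2 change against the control of the same time, with its 95% interval, for the 7 members after 6 h and 24 h (edgeR quasi-likelihood fit). Filled points were called. The SPRY4 points are open because the gene stayed under 5 CPM, and they are a description only, since the gene passed the filter through its high groups.

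SPRED2 had the largest fold of the 4 abundant members in each comparison with control at 6 h. It was at 15, 17.9, 16.6 and 15.5 CPM in the 4 controls at 6 h, at 25.5 to 29.4 CPM in the 5 AII libraries, at 49, 50.3 and 51.4 CPM in the 3 EGF libraries and at 70.9, 66.1, 69.9 and 68.1 CPM in the 4 AII + EGF libraries. No 2 of these groups overlapped. The stimulated libraries lay wholly above the controls for 4.88% of tested genes with AII, 13.2% with EGF and 17.4% with AII + EGF. The log2 change was 0.75 ± 0.155 (SE; edgeR adjusted p = 0.00397) with AII, 1.63 ± 0.172 (adjusted p = 1.3e-08) with EGF and 2.08 ± 0.165 (adjusted p = 9.32e-13, 4.24-fold) with AII + EGF. For AII the call depended on which libraries were used: with all 48 libraries the log2 change was 0.77 with an adjusted p of 0.0212, and without any single one of 5 libraries (AII 6 h replicates 1 and 2, control 6 h replicates 3, 5 and 6) the adjusted p was 0.0109 to 0.0238 in edgeR. With all 48 libraries the EGF and AII + EGF changes, 1.35 and 1.69, were still called.

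SPRED1, the member whose loss of function causes Legius syndrome, was at 13.5 to 15.1 CPM in the controls at 6 h and at 17.7 to 22.4 CPM with AII. With EGF it was at 30.9, 31.9 and 30.2 CPM, and with AII + EGF at 44.7, 47, 55.2 and 51.4 CPM. Each stimulated group again lay above the controls without overlap. The log2 change was 1.11 ± 0.125 (edgeR adjusted p = 5.2e-08) with EGF and 1.79 ± 0.119 (adjusted p = 1.02e-14) with AII + EGF, both also called with all 48 libraries (1.18 and 1.54). With AII it was 0.47 ± 0.113, which did not pass (edgeR adjusted p = 0.0154, 1.39-fold).

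SPRY2, the Sprouty best known as a partner of CBL and GRB2, rose with EGF but did not pass with AII alone. It was at 8.55 to 11.2 CPM in the controls and at 9.59 to 13.1 CPM with AII, groups that overlapped (log2 change 0.19, 95% interval -0.07 to 0.44, edgeR adjusted p = 0.606). With EGF it reached 18.2, 19.1 and 21.8 CPM, and with AII + EGF 30.1, 31.9, 35.5 and 37 CPM. These values correspond to log2 changes of 1.00 ± 0.14 (edgeR adjusted p = 3.29e-06) and 1.77 ± 0.133 (adjusted p = 2.2e-13, 3.42-fold), and both were called with all 48 libraries as well, at 0.94 and 1.43.

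SPRY1, which restrains receptor tyrosine kinase signalling during kidney development, responded more evenly. Controls at 6 h were at 17.2, 15, 14.6 and 11.1 CPM, AII libraries at 20.8 to 26, EGF libraries at 25, 26.5 and 27.3 and AII + EGF libraries at 31.7, 36, 30.9 and 34 CPM. The log2 change with AII, 0.69 ± 0.177, was above 1.5-fold but did not pass (edgeR adjusted p = 0.0265), although DESeq2 called it (adjusted p = 0.00714). With EGF the change was 0.86 ± 0.196 (edgeR adjusted p = 0.00371) and with AII + EGF 1.20 ± 0.185 (adjusted p = 2.54e-06). The AII + EGF change was smaller with all 48 libraries, 0.77 (adjusted p = 0.000891), and still called. The EGF call was lost with all 48 libraries (log2 change 0.57, adjusted p = 0.0275) and without any single one of the 3 EGF libraries or of control replicates 5 and 6 (edgeR adjusted p 0.0111 to 0.0306). The 2 control libraries left out at 6 h, each a member of a near-identical pair, held SPRY1 at 22.3 and 22.1 CPM, above every control used.

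SPRY4, a Sprouty that also binds the kinase TESK1, was almost absent without EGF. The 4 controls at 6 h held 0, 0, 2 and 1 counts and the 5 AII libraries 4, 1, 1, 0 and 1, whereas the 3 EGF libraries held 60, 56 and 73 counts and the 4 AII + EGF libraries 64, 72, 48 and 74. A library with 0 counts allows up to 3, which was 0.137 and 0.16 CPM in those 2 controls. Per sequenced fragment the EGF libraries held 65.9 times the SPRY4 counts of the controls (exact 95% interval 22.2 to 322, 189 against 3 counts) and the AII + EGF libraries 91.5 times (31 to 446, 258 against 3), intervals that cover counting error only. The AII libraries held 1.89 times the control counts (0.432 to 11.3). The means were 2.41 ± 0.342 CPM (n = 3) with EGF and 3.34 ± 0.616 CPM (n = 4) with AII + EGF, under the 5 CPM asked of a call. Since the gene passed the filter through the groups in which it was high, these values are a description, and no p is given. With all 48 libraries the control mean was 0.12 ± 0.211 CPM, the AII mean 0.43 ± 0.882 CPM, the EGF mean 2.26 ± 0.42 CPM and the AII + EGF mean 2.67 ± 1.39 CPM (n = 6 each), and the fitted log2 changes fell from 5.84 to 3.93 with EGF and from 6.31 to 4.17 with AII + EGF. Among the fits without 1 library the EGF value ranged from 5.44 to 6.83.

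SPRY3 and SPRED3 were not called in any comparison at 6 h. SPRY3 was at 1.56 to 2.15 CPM in controls, 1.59 to 2.21 with AII, 1.37 to 1.58 with EGF and 0.964 to 1.28 CPM with AII + EGF, so the AII + EGF libraries lay below all controls, as they did for 15.9% of tested genes. Its log2 change with AII + EGF was -0.70 ± 0.176 (edgeR adjusted p = 0.00171), at a level too low for a call, and with all 48 libraries it was -0.57, under 1.5-fold. Without control 6 h replicate 6 the difference did not pass (edgeR adjusted p = 0.0134). SPRED3, whose expression is described mainly in brain, was at 0.16, 0.41, 0.699 and 1.23 CPM in the controls and at 2.24, 2.25, 1.18 and 1.14 CPM with AII + EGF, which overlapped (log2 change 1.42 ± 0.481, edgeR adjusted p = 0.0203).

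The addition of AII to EGF was examined next, since the study asked for joint effects of both receptors. At 6 h, 2 of 7 members were higher with AII + EGF than with EGF alone, where 1.62% of tested genes were higher: SPRY2 by 0.77 ± 0.139 on the log2 scale (edgeR adjusted p = 0.00017, 1.71-fold) and SPRED1 by 0.68 ± 0.125 (adjusted p = 0.000228, 1.6-fold). The AII + EGF libraries of SPRY1, SPRY2, SPRED1, SPRED2 and SPRED3 all lay above the 3 EGF libraries, as did 13.9% of tested genes, and those of SPRY3 below them, as did 16.4%. For SPRED2 the difference was 0.45 ± 0.17 (adjusted p = 0.0837) and for SPRY1 0.34 (95% interval -0.06 to 0.73), neither of which passed in edgeR. For SPRY4 the fitted difference was 0.47, a description only. With all 48 libraries neither call held: the difference was 0.49 (adjusted p = 0.121) for SPRY2 and 0.36 (adjusted p = 0.185) for SPRED1. Among all tested genes 574 differed between AII + EGF and EGF in either direction with 38 libraries, and 64 with 48.

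Against AII alone, AII + EGF raised 3 of 7 members, where 4.21% of tested genes were higher. SPRY2 was higher by 1.59 (edgeR adjusted p = 1.18e-12), SPRED2 by 1.33 (adjusted p = 7.21e-09) and SPRED1 by 1.32 (adjusted p = 5.73e-12) on the log2 scale, and the 3 calls were also made with all 48 libraries, at 1.03, 0.92 and 0.89 respectively. SPRY1 was higher by 0.51, which did not pass (edgeR adjusted p = 0.0245). For SPRY4 the fitted log2 difference, again a description only, was 5.48, and with all 48 libraries it was 2.65. The library labelled AII 6 h replicate 6 held 42 SPRY4 counts, and with so few counts in the other AII libraries the fitted difference also depends on the prior count. SPRY3 was lower by 0.70 (edgeR adjusted p = 0.00164), too low in level for a call, and with all 48 libraries by 0.36 (adjusted p = 0.15), and SPRED3 was higher by 1.21, which did not pass (edgeR adjusted p = 0.0404).

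Whether AII + EGF exceeded the combination of both single effects depended on the scale and on the libraries used. As a product of folds, tested by the interaction term on the log2 scale, 0 of 7 members passed (0 by DESeq2), and 0.229% of tested genes did. An unadjusted p under 0.05 was reached by 1 member and by 9.76% of tested genes. SPRY2 had an interaction of 0.59 ± 0.187 (edgeR adjusted p = 0.162), SPRED1 of 0.20 (adjusted p = 0.783), SPRED2 of -0.29 (adjusted p = 0.768) and SPRY1 of -0.35 (adjusted p = 0.75). In the fit with the run of sample titles as a block, that of SPRY2 was 0.65 (adjusted p = 0.00829). On the linear scale the AII + EGF mean can be set beside the control plus both single effects, as values with no test. SPRY2 reached 33.6 CPM against a sum of 21 (excess 12.6 ± 2.08 CPM, SE) and SPRED1 49.5 against 36.5 (excess 13 ± 2.58 CPM). SPRED2 reached 68.8 against 61.2 CPM (excess 7.52 ± 1.55), below the product of folds of 84.3 CPM. SPRY1, at 33.1 against 35.1 CPM, was within 1 SE of the sum (-1.94 ± 2.07). With all 48 libraries the excess was 4.78 ± 4.99 CPM for SPRY2, 1.03 ± 6.79 for SPRED1 and -0.783 ± 9.52 for SPRED2, all within 1 SE of 0, and the interaction of SPRED1 was -0.29.

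**Figure D3:**
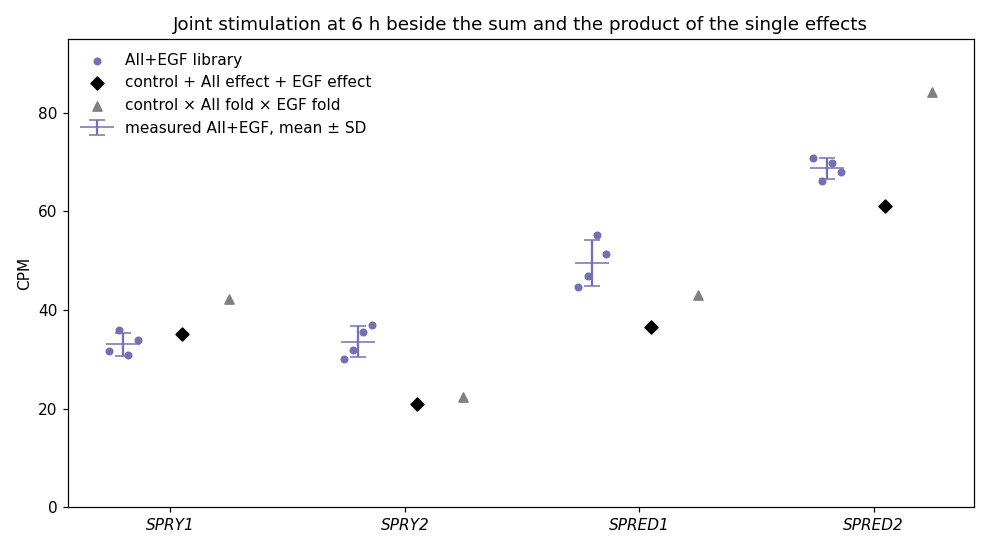
CPM (linear axis from 0) of SPRY1, SPRY2, SPRED1 and SPRED2 in the 4 AII + EGF libraries used at 6 h (points, with mean ± SD), beside the sum of the single effects (diamonds) and the product of the single folds (triangles). SPRY2 and SPRED1 stand above both marks, SPRED2 between them and SPRY1 under both.

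At 24 h the responses were smaller, and SPRED2 was the 1 member called. With AII, edgeR called 0 of 7 members (0 at an unadjusted p under 0.05) and 0% of tested genes (343 at an unadjusted p under 0.05), and DESeq2 called 0 as well. EGF called 1 of 7 (0.163% of tested genes rose), and so did AII + EGF (1.7% rose). SPRED2 was at 16.1 to 22.9 CPM in the 6 controls, with a median of 20.6. It was at 36.1, 37.3, 33, 33.8 and 16.4 CPM with EGF, so 4 of 5 libraries lay above all controls, and at 20.8 to 39.6 CPM with AII + EGF (median 32), where 5 of 6 did. The log2 changes were 0.63 ± 0.136 (edgeR adjusted p = 0.00808) and 0.64 ± 0.131 (adjusted p = 0.000485). These calls were not firm. With all 48 libraries the changes were 0.56 (adjusted p = 0.244) and 0.64 (adjusted p = 0.0216), and in 19 of the 38 fits that left out 1 library, among them those without EGF replicates 1, 3, 4 or 5 or control replicates 1, 2, 4 or 6 at 24 h, the EGF call was lost, with log2 changes between 0.56 and 0.79 over all 38. Against AII alone, AII + EGF called 1 of 7 members at 24 h (0.856% of tested genes), again SPRED2, by 0.66 ± 0.138 (adjusted p = 0.00143; with all 48 libraries 0.67, adjusted p = 0.0232). Without AII + EGF 24 h replicate 5 the calls against control and against AII were lost, the first under 1.5-fold at 0.56 and the second at 0.58 (adjusted p = 0.00729 in edgeR), also under 1.5-fold. Against EGF alone 0 of 7 members and 0.0917% of tested genes were called by edgeR, and 0 members by DESeq2 (0 members and 10.7% of tested genes at an unadjusted p under 0.05). The interaction at 24 h called 0 of 7 members and 0% of tested genes with either tool (660 genes at an unadjusted p under 0.05).

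The lowest SPRED2 value of each group at 24 h lay in the library numbered replicate 6. The sample titles run through the 4 treatments at a time, and these 4 libraries form the last such run. In its control, AII, EGF and AII + EGF libraries SPRY1 was at 13.4, 11.3, 14.4 and 13.4 CPM, below the other 18 libraries used at 24 h (18.7 to 26.8 CPM), and AGTR1, at 4670, 5360, 6610 and 8090 CPM, was below the other libraries of each treatment as well. Their totals, 23.2 to 26.9 M counts, were within the range of the libraries used, and their part in the results was not tested otherwise. Without these 4 libraries, in a fit added after the data were seen, SPRED2 changed by 0.74 with EGF (edgeR adjusted p = 2.22e-07) and by 0.70 with AII + EGF (adjusted p = 2.45e-08), and it remained the 1 member called in each comparison. In that fit AII at 6 h called 2 members instead of 1, as SPRY1 passed too (log2 change 0.69, adjusted p = 7.13e-06).

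No other member was called at 24 h. SPRY2 was at 9.36 to 12.5 CPM in the 6 controls (median 10.6), at 15.8, 16.7, 16, 13.4 and 11.3 CPM with EGF and at 11.6 to 18.1 CPM with AII + EGF (median 15.9). The AII + EGF change of 0.52 ± 0.107 passed on the p-value (edgeR adjusted p = 0.000494) but was under 1.5-fold (with all 48 libraries adjusted p = 0.0575), and the EGF change of 0.45 did not pass (adjusted p = 0.0256). SPRY4 held 10, 26, 22, 21 and 3 counts in the EGF libraries and 6, 22, 7, 19, 13 and 0 in the AII + EGF libraries, against 0, 0, 2, 1, 1 and 0 in the controls. That was 26.7 times the control counts per fragment with EGF (exact 95% interval 10 to 100, counting error only) and 18 times with AII + EGF (6.73 to 68.1), again a description at a level under the minimum for a call. SPRY1 lay at 11.3 to 26.8 CPM over all 24 h groups, and its log2 changes, from -0.16 to 0.07, did not pass. SPRED1 was above every control in 4 of 5 EGF libraries (log2 change 0.29, 95% interval 0.09 to 0.49, edgeR adjusted p = 0.131) and in 5 of 6 AII + EGF libraries (0.17, -0.02 to 0.37, adjusted p = 0.211), which did not pass. SPRED3 was at 0.232 to 1.07 CPM in the controls and at 1.01 to 1.88 CPM with AII + EGF, of which 4 of 6 lay above all controls (0.96, 95% interval 0.18 to 1.74, edgeR adjusted p = 0.0748).

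Between 6 h and 24 h the response to AII + EGF fell in 4 of 7 members, where 6.08% of tested genes had a lower response at 24 h. The difference of the log2 responses was -1.61 ± 0.152 for SPRED1 (edgeR adjusted p = 3e-10), -1.44 ± 0.207 for SPRED2 (adjusted p = 1.53e-06), -1.36 ± 0.237 for SPRY1 (adjusted p = 3.36e-05) and -1.25 ± 0.169 for SPRY2 (adjusted p = 5.16e-07). With all 48 libraries that of SPRY2 did not pass (-0.90, adjusted p = 0.0123), while those of SPRED1 (-1.37), SPRED2 (-1.04) and SPRY1 (-0.93) did. The EGF response fell in 2 of 7 members (0.78% of tested genes), by 1.00 ± 0.219 on the log2 scale for SPRED2 (edgeR adjusted p = 0.00577) and by 0.82 ± 0.161 for SPRED1 (adjusted p = 0.00172), and neither passed with all 48 libraries (adjusted p = 0.073 and 0.0149). Leaving out control 24 h replicate 4, control 6 h replicates 3, 5 or 6, or any of the 3 EGF 6 h libraries left the call of SPRED1 and not that of SPRED2 (edgeR adjusted p 0.0104 to 0.0219). The AII response differed in 0 of 7 members by edgeR or DESeq2, and 0.138% of tested genes were called (3 members and 8.02% of tested genes at an unadjusted p under 0.05). Without the last title run it was lower at 24 h for SPRY1 (-0.79, adjusted p = 0.000426) and SPRED2 (-0.77, adjusted p = 8.42e-05), and the EGF response was also lower for SPRY1 (-0.74, adjusted p = 0.000861). For SPRY1 the control itself was higher at 24 h, by 0.57 ± 0.171 (edgeR adjusted p = 0.00968), which is just under 1.5-fold. So 0 of 7 members were called (0 by DESeq2), where 4.77% of tested genes were called higher. An unadjusted p under 0.05 was reached by 2 of 7 members and by 43.7% of tested genes. Without the last title run the SPRY1 difference was 0.67 (edgeR adjusted p = 1.02e-06) and was called, while with all 48 libraries it was 0.34 (adjusted p = 0.179).

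Of 23 cascade genes, from the EGF receptors through adaptors, RAS, RAF and MEK to the ERK-activated RSK kinases, 0 were called with AII at 6 h, 1 rose with EGF (EGFR itself, by 0.75 on the log2 scale) and 3 rose with AII + EGF, beside 0.459%, 1.62% and 6.45% of all tested genes. These 3 were EGFR (1.29), the RSK kinase RPS6KA3 (0.97) and the MEK gene MAP2K1 (0.91). At 24 h 1 rose with AII + EGF, ERBB3 (1.18), where 1.7% of all tested genes rose, and 0 rose with AII or EGF. The median log2 change of the 23 genes with AII + EGF at 6 h was 0.10, against 1.77 over the members and -0.03 over all tested genes.

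Among genes whose proteins bind, modify or are recruited by Sprouty and SPRED proteins, 22 of 23 could be tested. With AII + EGF at 6 h, 6 of 22 rose and 2 fell, where 6.45% of all tested genes rose and 5.53% fell. Risen were CAV1 (1.46), the caveolin that can bind Sprouty, the ubiquitin ligases NEDD4 (1.25) and CBL (0.99), the prolyl hydroxylases EGLN3 (1.25) and EGLN1 (0.66) and the kinase TESK1 (0.67). The receptor KIT fell by 1.46 on the log2 scale and the ERK-activated kinase MKNK1 by 0.75. With EGF alone KIT fell by 0.88 and 0 rose, where 0.321% of all tested genes fell and 1.62% rose. With AII alone CAV1 rose (0.74), where 0.459% of all tested genes rose. At 24 h 0 were called with any stimulus. NF1, the partner of SPRED proteins, named after its values were seen, was not called in any of these 6 comparisons; its largest change was 0.50 with AII + EGF at 6 h.

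Among other inhibitors of the same pathway, of which 18 of 19 listed could be tested, 2 of 18 rose with EGF at 6 h (1.62% of all tested genes), the ERK phosphatases DUSP5 (1.39) and DUSP4 (1.03), and 4 of 18 with AII + EGF (6.45%), DUSP5 (2.31), DUSP4 (1.69), the EGFR inhibitor ERRFI1 (0.76) and the RAS GTPase-activating protein RASA3 (0.64). At 24 h DUSP4 (0.69) rose with EGF, and DUSP4 (0.96), DUSP5 (0.81) and ERRFI1 (0.59) with AII + EGF. These 24 h counts, 1 and 3 of 18, stand beside 0.163% and 1.7% of all tested genes. AII alone called 0 at either time. The median of this list was 0.15 with AII + EGF at 6 h.

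ERK output genes, transcripts commonly read as a measure of pathway activity, were called as follows, beside the shares of all tested genes given above. Of 8 genes, 2 rose with AII at 6 h, the ETS factor gene ETV5 (3.11) and the receptor EPHA2 (0.95), and 5 rose with EGF, namely ETV4 (6.39), ETV5 (5.17), EPHA2 (1.67), DUSP4 (1.03) and CCND1 (0.71). With AII + EGF the same 5 genes were called higher, ETV4 by 7.75 and ETV5 by 6.49, while EPHA4 fell by 1.00. At 24 h ETV5 (3.78) and DUSP4 (0.69) rose with EGF, and 4 genes with AII + EGF, ETV4 (5.96), ETV5 (3.61), DUSP4 (0.96) and EPHA2 (0.74). DUSP4 and DUSP6 stand in both of the last lists. The median of the 8 genes was 0.54, 1.35 and 2.17 with AII, EGF and AII + EGF at 6 h.

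**Figure D4:**
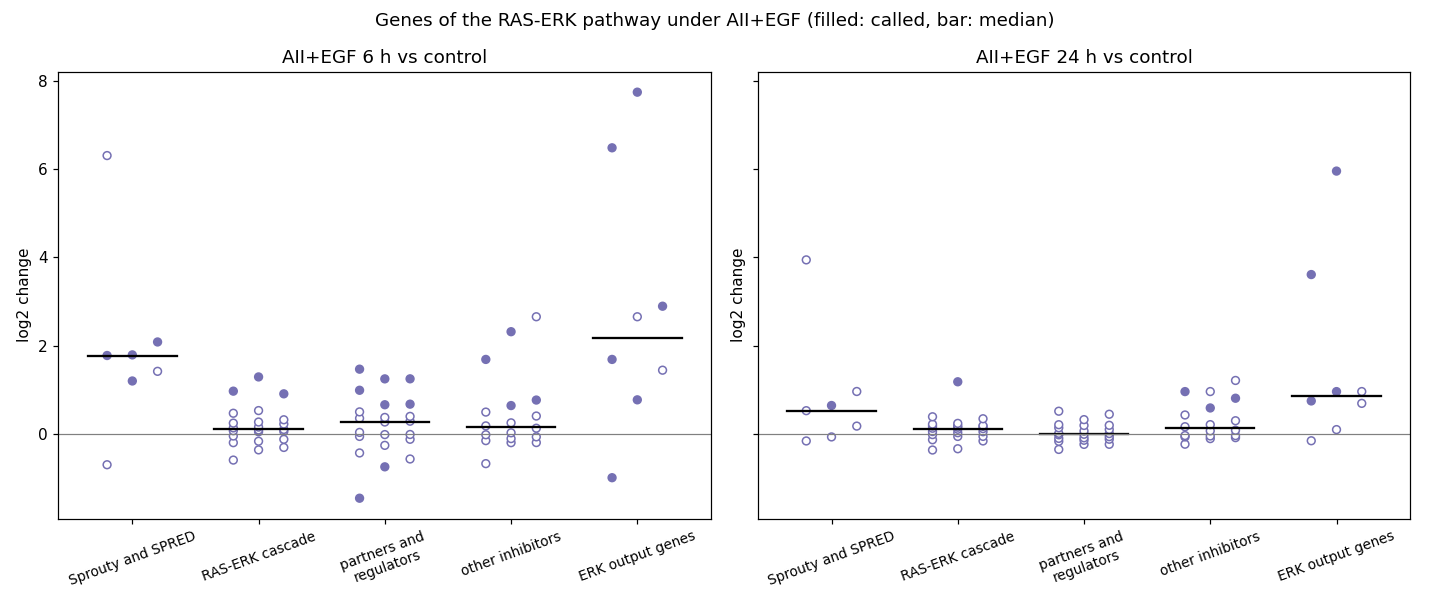
Log2 change with AII + EGF against control at 6 h (left) and 24 h (right) for the 7 members and the 4 gene lists; each point is a gene, filled where called, and bars are medians. At 6 h the medians of the members (1.77) and of the ERK output genes (2.17) stand above those of the other lists.

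The pattern over the 8 groups was compared between genes by Pearson's r of the group means of log2(CPM + 1), as a description over points that share the same libraries. Most like SPRY2 among 2347 other genes called with AII + EGF at 6 h were the zinc finger factor EGR2 (r = 0.994), CAMKV (0.994) and PITPNM2 (0.991). Closest to SPRED2 were the EGR corepressor NAB2 (0.988), the ETS factor ETV1 (0.987) and DDAH1 (0.986). For SPRED1 they were the gap junction gene GJA1 (0.995), the receptor adaptor GRB10 (0.992) and MFSD2A (0.992), and for SPRY1 DOCK9 (0.985), ZHX2 (0.974) and CDK14 (0.974). Among the members themselves r over the group means was highest for SPRY2 and SPRED2 (0.958). SPRY2 and SPRY4 (0.957) and SPRY4 and SPRED2 (0.955) were nearly as close, so no pair stood out. SPRY3 ran opposite to SPRED1 (r = -0.942).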

How the data were processed

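The authors sequenced poly(A) RNA (paired-end, NovaSeq) and, per the labels, mapped reads to hg38 with HISAT2 2.1.0 and counted them with featureCounts. The deposited values are raw counts per gene in 1 table, without normalisation. Strand and the treatment of multimapping reads are not given in the sources used here, so overlapping and antisense genes are uncertain. The table held 0 columns of other samples. The members, lists and the libraries to leave out were chosen with earlier results of these data known.

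All 1128 pairs of libraries were compared by chi-square divided by its degrees of freedom, which was 0.397 to 0.505 for the 4 pairs left out and at least 2.02 for the next. The next were AII 6 h replicates 1 and 2 (2.02), EGF 6 h replicates 3 and 4 (3.32) and AII + EGF 24 h replicates 1 and 2 (3.96). Each of these pairs lay within 1 group and 1 title run, and all were kept as separate libraries. Tests used edgeR 4.0.16 (R 4.3.3) with filterByExpr by group, TMM and 1 quasi-likelihood fit over 38 libraries with 1 term per group, adjusted by Benjamini-Hochberg over 19626 genes. The steps were tested on simulated data. SE is the log2 change over the square root of F. Alternatives were other library sets, DESeq2 1.42.0, other factors, filters and thresholds, a block for title runs, and leaving out each library. The fit without the last title run was chosen after seeing the data. Genes named were all members, up to 5 called genes per list and comparison with the largest change (MKNK1, TESK1, EGLN1 and NF1 besides), the 3 genes closest to each called member, and AGTR1. Exon lengths came from GENCODE v44lift37.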

Additional observations from a re-analysis of the deposited data

Results flagged for a closer look

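In 49 sets of 4 to 6 values (a member in a group), 5 held a library far from the others by Dixon's criterion, which chance meets in about 1 of 20. SPRY1 was at 13.4 CPM in control 24 h replicate 6, where the next control was at 21.3, and at 11.3 CPM in AII 24 h replicate 6, where the next was at 20.5. SPRED1 was at 13.6 CPM in AII + EGF 24 h replicate 6, where the next was at 17.4, and SPRED2 at 16.4 CPM in EGF 24 h replicate 6, where the next was at 33. These 4 values come from the same run of sample titles. SPRY4 was at 0.21 CPM, or 4 counts, in AII 6 h replicate 1, where the next was at 0.0537.

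Responses differed between the times by the test of the difference itself. With AII + EGF, the log2 response at 24 h minus that at 6 h was -1.36 for SPRY1, -1.25 for SPRY2, -1.61 for SPRED1 and -1.44 for SPRED2, and with EGF it was -0.82 for SPRED1 and -1 for SPRED2.

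The stimulated libraries left out were set beside the controls used at the same time. Members above every such control numbered 5 in EGF 6 h replicates 1, 2 and 6, in AII + EGF 6 h replicate 4 and in EGF 24 h replicate 2. They numbered 5 in the library labelled AII 6 h replicate 6, 2 in that labelled AII + EGF 6 h replicate 6 and 1 in AII 24 h replicate 4. The share of all tested genes above these controls was not computed. EGF 24 h replicate 2 and AII 24 h replicate 4 are near-identical to libraries labelled control 6 h. AII + EGF 6 h replicate 4 is near-identical to a library labelled EGF 6 h. Their counts therefore cannot be assigned to the labelled stimulus.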

How the results depend on the processing

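Of 1778 single-gene log2 changes under alternatives, 1705 stayed on their side of the test's threshold, 47 lost it, 26 gained it and 0 passed in the opposite direction. Without 1 library each, 4209 of 4256 stayed. Changes that passed in neither fit are among those that stayed, so these counts do not give the share of passing results that held. The threshold took no account of abundance, so the setting with no abundance minimum could move none of them. Settings that only loosened the p or the fold could not lose a result. The cause of the changes was not tested unless named. The number of members called moved as follows, and the others stayed within 1.5 times. For AII at 6 h (1) it was 0 with all 48 libraries, with 40 (only pairs left out) and with 46 (only doubtful labels left out), and 2 with DESeq2, the title-run block, a fit of the compared groups alone, an adjusted p under 0.05 and without the last title run. For EGF at 6 h (4) it was 2 with 40 libraries. For EGF at 24 h (1) it was 0 with 48, 40 and 46 libraries, with 39 (a near-identical EGF pair summed) and with the compared groups alone, and 2 with no abundance minimum. For AII + EGF at 24 h (1) it was 0 with 48 and 40 libraries and 2 with no fold or no abundance minimum. AII + EGF against EGF at 6 h (2) gave 0 with 48 and 40 libraries and 1 with 46, against AII at 6 h (3) 5 with no abundance minimum, and against AII at 24 h (1) 0 with 48 and 40 libraries and with the compared groups alone. The interaction at 6 h (0) gave 1 with the title-run block. Control at 24 h against 6 h (0) gave 1 with library totals in place of TMM, with no fold minimum and without the last title run. The AII response at 24 h minus 6 h (0) gave 2 with the title-run block and without the last title run, and the EGF response (2) gave 0 with 48 and 40 libraries, with library totals and with the compared groups alone, and 1 with 39 libraries. Leaving out 1 library gave 0 to 2 for AII at 6 h and for AII + EGF at 24 h, 3 to 4 for EGF at 6 h, 0 to 1 for EGF at 24 h, for AII + EGF against AII at 24 h, for the controls over time and for the AII response over time, and 1 to 2 for the EGF response over time. The higher counts came without AII 24 h replicate 6 for AII at 6 h, AII + EGF 24 h replicate 6 for AII + EGF at 24 h, control 6 h replicate 3 or control 24 h replicate 6 for the controls over time and EGF 24 h replicate 6 for the AII response. No paired analysis was possible because the labels carry no replicate numbers, and the numbers used here follow accession order and pair nothing. The title run is a block only by the order of titles, and control at 24 h against 6 h could not be fitted with it. SPRY4 and SPRED3 values rest on few counts, and EGF at 6 h on 3 libraries.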

Other observations

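In the library labelled AII 6 h replicate 6, SPRY2 was at 27.4 CPM, SPRY4 at 2.22, SPRED1 at 41.9 and SPRED2 at 49.5 CPM, all above the 5 AII libraries used. The library labelled AII + EGF 6 h replicate 6 held SPRY2 at 10.5, SPRY4 at 0.0375, SPRED1 at 19.3 and SPRED2 at 20.2 CPM, below the 4 AII + EGF libraries used. SPRY1 was at 16.5 and 13.2 CPM in these libraries, both below the 5 AII libraries used (20.8 to 26 CPM), which come from other title runs. Control 6 h replicate 6, from the same title run, held SPRY1 at 11.1 CPM, the lowest of the controls used at 6 h. Whether SPRY1 followed the other members in these libraries was not tested. The library labelled control 6 h replicate 1 held 20 SPRY4 counts, where the controls used held up to 2, and its near-identical partner, labelled EGF 24 h replicate 2, also held 20.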
